A study of Homo sapiens with 10 samples.

Results

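A block of chromosome 11 from 63 to 68 Mb (hg19) was crowded with ERG and EWS peaks in VCaP prostate cancer cells. Its members were all peaks of the 7 peak lists whose centre lay in this interval. A stretch of 184000 bp around the long non-coding RNA genes NEAT1 and MALAT1 was left out, which left 4816000 bp. The members were 1718 of 30301 peaks, 674 of them in the ERG list of VCaP and 1022 in the EWS list of VCaP. The block had been chosen by its high number of VCaP peaks per megabase, so peak counts, spacing and the contrast between the cell lines are described here and not tested.

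The lists came from ChIP-seq of 2 prostate cell lines with an antibody against ERG or against EWS. VCaP is a prostate cancer line, analysed without treatment, with 1 ERG and 1 EWS list. RWPE1 is a line from normal prostate, grown under puromycin and hygromycin selection after stable expression of ERG. It had 1 ERG and 1 EWS list with ERG P436A, a point mutant, and 2 ERG lists and 1 EWS list with wild-type (WT) ERG. Each list gives positions of peaks without height or score, and read depth is unknown. Input samples were not analysed here. The labels do not say whether the 2 WT ERG replicates came from separate cultures or how many RWPE1 clones were used.

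ERG belongs to the ETS family of transcription factors, which bind DNA at sites with a GGAA core. It is not normally made in prostate epithelium, and in many prostate cancers, VCaP among them, the TMPRSS2-ERG gene fusion places it under an androgen-responsive promoter. EWS, the product of EWSR1, is an RNA-binding protein of the FET family that takes part in transcription and is known here as a co-activator of ERG. The q13 region of the long arm of chromosome 11 is rich in genes. Among the genes known to lie in this stretch are MEN1, which encodes the tumour suppressor menin, RELA, which encodes the p65 subunit of NF-kB, and GSTP1, a glutathione transferase whose promoter is often methylated in prostate cancer. In the RefSeq gene table of the later assembly GRCh38.p14, 37 protein-coding genes were listed between MEN1 and RELA and 77 between RELA and GSTP1. Peaks were not assigned to genes or sequences, because the table and the peaks are on different assemblies.

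In VCaP the block held 8.74% of all ERG peaks (8.12% to 9.39%; exact 95% binomial interval) and 10.8% of all EWS peaks (10.1% to 11.4%). This was 140 ERG and 212 EWS peaks per Mb. In RWPE1 with ERG P436A the block held 5 of 1746 ERG peaks (0.286%) and 1 of 1786 EWS peaks (0.0560%). With WT ERG it held 6 of 1901 ERG peaks of replicate 1 (0.316%), 8 of 1953 of replicate 2 (0.410%) and 2 of 5703 EWS peaks (0.0351%). Each RWPE1 list thus had at most 8 peaks in the block, and the replicates differed by 2 peaks. The VCaP and RWPE1 lists also differ in length, and depth cannot be compared, so these shares compare lists and not amounts of binding. Copy number in VCaP was not measured here, and its part in the number of peaks was not tested.

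**Figure D1:**
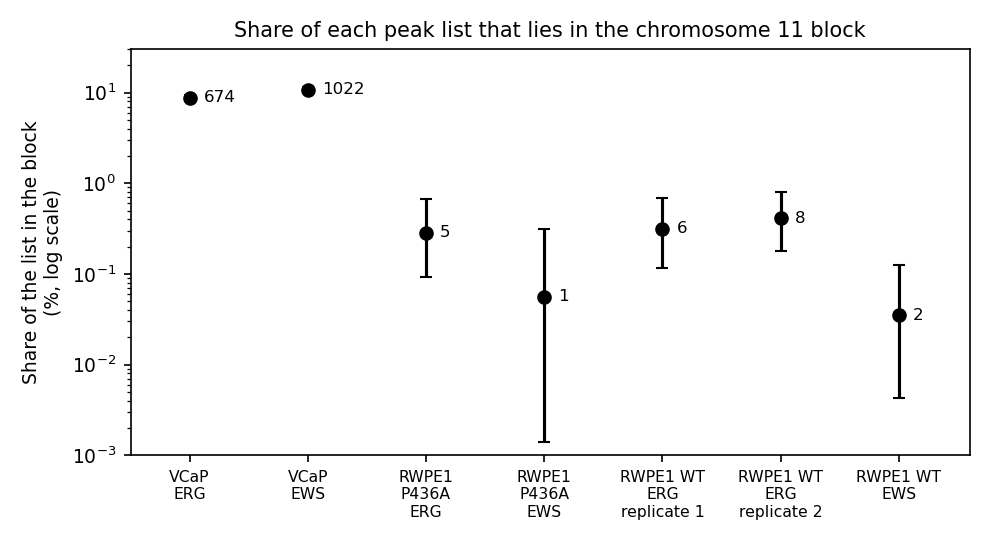
Share of each peak list (%, log scale) that lies in the chromosome 11 block, with exact 95% binomial intervals; the number beside each point is its count of peaks. VCaP ERG and EWS stand at 8.74% and 10.8%, and every RWPE1 list at 0.410% or less.

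Every megabase of the block was among the 8 most crowded of the VCaP ERG list and the 6 most crowded of the VCaP EWS list. Among 1683 megabase bins with a VCaP ERG peak, the bin from 63 to 64 Mb ranked first with 222 peaks and that from 64 to 65 Mb ranked 3 with 155. Among 1324 bins with a VCaP EWS peak, the bin from 64 to 65 Mb ranked first with 254 peaks and that from 63 to 64 Mb ranked 2 with 219. The bins from 65, 66 and 67 Mb held 95, 103 and 99 ERG peaks and 163, 194 and 192 EWS peaks. ERG peaks were thus most numerous at the lower end of the block, whereas EWS peaks were spread more evenly.

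The lower edge was abrupt and lay at the same place in both lists. The last ERG peak before the block was chr11:62558885-62559888, and the first in it was chr11:63120677-63121343, 561 kb further on. From this first peak, 134 ERG peaks followed within 500 kb, and 0 lay within 500 kb before it. For EWS, the last peak before the block was chr11:62958745-62959220, and a single peak at chr11:63041717-63042211 preceded a stretch of 75080 bp, chr11:63042212-63117291, with no peak of either VCaP list. Counted in windows of 100 kb, the window from 63 to 63.1 Mb held 0 ERG peaks and 1 EWS peak, and that from 63.1 to 63.2 Mb held 19 ERG and 29 EWS peaks. Crowding thus began within the same 100 kb in both lists.

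The upper edge differed between the lists. ERG counts were already low before 68 Mb: the largest step between adjacent stretches of 500 kb was at 67.45 Mb, with 79 ERG peaks below it and 18 above it. For EWS the largest step was at 68.04 Mb, with 76 peaks below it and 9 above it. Between 67.5 and 68 Mb there were 20 ERG and 76 EWS peaks. Beyond the block, from 68.2 to 68.5 Mb, there were 0 ERG and 6 EWS peaks, and from 68.5 to 69.5 Mb there were 13 ERG and 62 EWS peaks. EWS peaks thus continued at 6.20 per 100 kb past the edge at which ERG peaks were at 1.30 per 100 kb. Before the block, from 61 to 63 Mb, each VCaP list had at most 6 peaks per Mb.

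**Figure D2:**
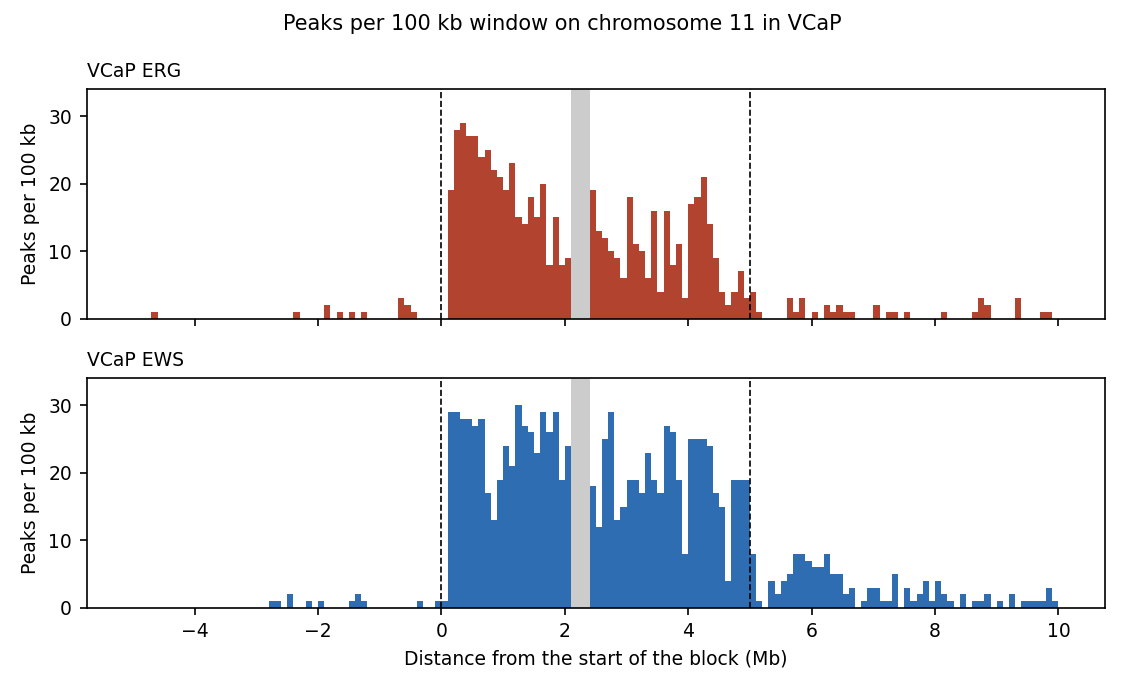
Number of VCaP ERG peaks (upper) and VCaP EWS peaks (lower) in windows of 100 kb, against distance from the start of the block in Mb; dashed lines mark the block from 0 to 5 Mb and the grey band the windows that touch the stretch left out. Both lists start together in the second window, ERG counts are highest at the lower end with up to 29 peaks, and EWS counts reach 30 and go on at low numbers past the upper line.

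Inside the block, 47 windows of 100 kb did not touch the stretch left out. ERG counts in them ran from 0 to 29 with a median of 14, and EWS counts from 1 to 30 with a median of 23. EWS had the higher count in 39 windows, ERG in 7, and 1 window was equal. The windows with the most ERG peaks were at 63.3, 63.2 and 63.4 Mb, with 29, 28 and 27 ERG and 28, 29 and 28 EWS peaks. The same 3 windows held the most peaks of both lists together. The window with the most EWS peaks was at 64.2 Mb, with 15 ERG and 30 EWS peaks, followed by several with 29 EWS peaks, those at 63.1 and 63.2 Mb among them. The coefficient of variation across windows was 54.8% for ERG and 31.7% for EWS. The counts of the lists varied together, with a Pearson r of 0.56 and a Spearman rho of 0.51 across the 47 windows, which are neighbouring stretches of 1 chromosome and not independent. Leaving out the windows below 64 Mb left r at 0.54 across 37 windows.

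Apart from the first window, the windows with the fewest VCaP peaks of both lists together were at 67.6 Mb, with 2 ERG and 4 EWS peaks, and at 66.9 Mb, with 3 ERG and 8 EWS peaks. A low ERG count did not always go with a low EWS count: the window at 67.9 Mb held 3 ERG and 19 EWS peaks, that at 66.5 Mb 4 and 17, and that at 66.3 Mb 6 and 23. The window at 63.8 Mb held 22 ERG and 13 EWS peaks. The longest stretches of the block with no VCaP peak, after the 75.1 kb at its lower edge, were chr11:67627118-67670565, of 43.4 kb, and chr11:65849547-65875881, of 26.3 kb. Only 8 of 1361 peak-free stretches were longer than 20 kb, and their median was 1563 bp.

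Neighbouring peaks of a list lay a few kilobases apart. The median distance between centres was 4413 bp for ERG (4135 to 4720 bp; exact 95% interval of the median) and 3507 bp for EWS (3316 to 3636 bp). In the rest of the VCaP lists, which hold other crowded blocks, the medians were 9194 bp for ERG and 6820 bp for EWS, and on the rest of chromosome 11 they were 149 kb for ERG and 76.6 kb for EWS. The closest peaks of a list in the block were separated by a gap of 505 bp for ERG and 503 bp for EWS, and the smallest gap in the rest of each list was 501 bp. The lists therefore contain no neighbours closer than about the width of an EWS peak, whatever the crowding. Between 63.1 and 63.5 Mb the median distances were 2938 bp for ERG and 3044 bp for EWS. In a VCaP block of 3 Mb near the end of chromosome 13, with ERG peaks from 109006831 to 112003360, the medians were 7140 bp for ERG and 6855 bp for EWS, and in a block of 1 Mb on chromosome 6 (20 to 21 Mb) they were 3597 bp and 3333 bp.

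ERG peaks of the block varied in width, whereas EWS peaks were narrow in the block and in the rest of their list. ERG peaks were 454 to 12156 bp wide, with a median of 821 bp and quartiles of 571 and 1603 bp. EWS peaks of the block were 374 to 501 bp wide, with a median of 493 bp. In the rest of the VCaP EWS list the median was 490 bp and the widest peak also 501 bp. The narrow range is thus not particular to the block, and its cause was not tested. Peaks over 2000 bp made up 116 of the 674 ERG peaks (17.2%, 14.4% to 20.3%) and 49.7% of the bases under them, against 6.19% of the peaks in the whole VCaP ERG list. The share was higher than in the rest of the list, where 358 of 7008 peaks were over 2000 bp (odds ratio 3.86, 3.05 to 4.86; Fisher's exact adjusted p = 3.12e-26). That rest includes the chromosome 13 and chromosome 6 blocks, which hold 217 of its 358 wide peaks. Without them 141 of 6527 peaks were wide (2.16%) and the odds ratio was 9.41 (7.18 to 12.3). The rise follows from leaving out blocks with many wide peaks after the data were seen, so no p-value is given for it. Against the chromosome 6 block, with 41 of 167 peaks, the odds ratio was 0.639 (0.420 to 0.985; Fisher's exact adjusted p = 0.0348), and this difference did not pass with peaks over 1000 bp (odds ratio 0.819; Fisher's exact adjusted p = 0.253). With peaks over 3000 bp the odds ratio against the chromosome 6 block was 0.596, with an interval of 0.356 to 1.02 that includes 1 (Fisher's exact adjusted p = 0.0485). In the chromosome 13 block 176 of 314 ERG peaks were over 2000 bp (56.1%), which is given without a test because that block was picked from these data for its wide ERG peaks. The tests were two-sided and adjusted over 3 comparisons, that with the chromosome 13 block included. They compare regions of 1 list, since peaks are not replicates. The tests also take peaks as independent, whereas wide peaks of the block lay close together. Their p-values can thus be too small and do not measure a spread between replicates. Just inside the limit, 7 peaks of the block were up to 100 bp above 2000 bp, and 12 were within 100 bp below it. On the rest of chromosome 11, 1 of 346 ERG peaks was over 2000 bp (0.289%, 0.00732% to 1.60%).

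**Figure D3:**
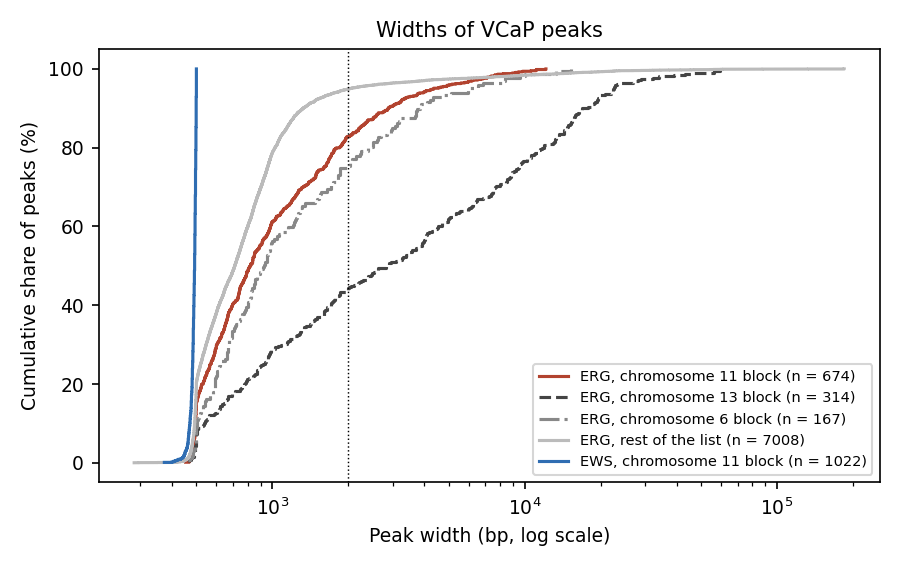
Cumulative share of VCaP peaks (%) against peak width (bp, log scale) for ERG in the chromosome 11 block, the chromosome 13 block, the chromosome 6 block and the rest of the list (with both of these blocks), and for EWS in the chromosome 11 block; the dotted line marks 2000 bp. ERG peaks of the chromosome 11 block lie between those of the chromosome 13 block and the rest of the list, and all EWS peaks end at 501 bp.

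The wide ERG peaks were gathered in a short part of the block. Of the 116 peaks over 2000 bp, 70 lay between 63 and 64 Mb, 28 between 64 and 65 Mb, and 7, 2 and 9 in the bins from 65, 66 and 67 Mb. In a stretch from 63.5 to 64.2 Mb, chosen after its values were seen, 73 of 161 ERG peaks were over 2000 bp (45.3%, 37.5% to 53.4%). ERG peaks covered 63.5% of its bases, against 31.0% from 63.1 to 63.5 Mb and 12.8% from 64.2 to 65.1 Mb. The window at 64 Mb was the most covered, at 76.3%. The window at 64.1 Mb was covered to 59.7% and the next one to 19.9%. Without 63 to 64 Mb, 46 of 452 ERG peaks were over 2000 bp, an odds ratio of 2.10 over the rest of the list (1.49 to 2.92; Fisher's exact adjusted p = 2.38e-05). This cut keeps the part of the wide stretch from 64 to 64.2 Mb, so the test does not show an excess above 64.2 Mb. From 64.2 to 65.1 Mb 5.74% of ERG peaks were over 2000 bp, and from 65.4 to 67.4 Mb 5.79%. From 67.5 to 68 Mb 0 of 20 were. The rest of the list had 5.11%, or 2.16% without the chromosome 13 and 6 blocks.

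EWS peaks were not most numerous in the stretch with the widest ERG peaks. All stretches compared here were cut after the counts per 100 kb were seen. EWS peaks numbered 149 from 63.5 to 64.2 Mb, or 21.3 per 100 kb, and 114 from 63.1 to 63.5 Mb, or 28.5 per 100 kb. From 64.2 to 65.1 Mb there were 25.9 EWS peaks per 100 kb, where 5.74% of ERG peaks were over 2000 bp. EWS peaks were fewer further on, with 20.2 per 100 kb from 65.4 to 67.4 Mb, where 5.79% of ERG peaks were over 2000 bp, and 15.2 per 100 kb from 67.5 to 68 Mb, where none of 20 was. The stretch with the wide ERG peaks thus lay between these values. In the window at 63.8 Mb, where ERG peaks covered 75.5% of the bases, EWS had 13 peaks, fewer than in either of its neighbours.

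The 5 widest ERG peaks were all between 63.6 and 64.1 Mb, and each held an EWS peak. The widest, chr11:63681056-63693211, was 12156 bp wide and overlapped 5 EWS peaks, the most of any ERG peak of the block. The next, chr11:63761092-63772223 (11132 bp), overlapped 1, and chr11:64012084-64023195 (11112 bp) overlapped 3. The peak chr11:63848541-63859136 (10596 bp) overlapped 1 and chr11:63871756-63881576 (9821 bp) overlapped 2. A further peak, chr11:64051895-64061080 (9186 bp), overlapped 3. The widest ERG peaks without EWS were chr11:63972834-63980207 (7374 bp), chr11:64163013-64168348 (5336 bp) and chr11:63549358-63554291 (4934 bp). Width and number of EWS peaks thus did not run strictly together among the widest peaks.

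Overlap of ERG and EWS was counted where at least 1 bp was shared. In the block, an EWS peak lay at 288 of 674 ERG peaks (42.7%, 39.0% to 46.6%), against 11.3% in the whole VCaP ERG list. An ERG peak lay at 333 of 1022 EWS peaks (32.6%, 29.7% to 35.6%), against 10.3% in the whole VCaP EWS list. The block held 33.0% of all VCaP ERG peaks that had EWS, and 8.74% of all VCaP ERG peaks. In the chromosome 13 block 47.8% of ERG peaks had EWS and 64.4% of EWS peaks had ERG, and in the chromosome 6 block 39.5% and 40.4%. These shares increase with the number of peaks, which chose this block, and with their width, for which the chromosome 13 block was picked. No test was made on the shares. Of the 674 ERG peaks, 249 overlapped 1 EWS peak, 35 overlapped 2, 3 overlapped 3 and 1 overlapped 5. About equal parts of the EWS peaks at ERG were wholly inside an ERG peak or partly outside: 164 of 333 (49.2%) were wholly inside. Shared bases came to 123178 bp, or 12.9% of the bases under ERG peaks and 24.7% of those under EWS peaks.

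The share of ERG peaks with EWS, counted by 1 bp overlap, rose with the width of the ERG peak. ERG peaks with EWS had a median width of 1230 bp and those without EWS of 691 bp. Of peaks up to 600 bp wide, 47 of 197 had EWS (23.9%, 18.1% to 30.4%). The share was 36.3% from there up to 1000 bp, 52.1% up to 2000 bp and 69.3% up to 5000 bp. Over 5000 bp, 26 of 28 peaks had EWS (92.9%, 76.5% to 99.1%). When an EWS centre within 500 bp of the ERG centre was asked for, a measure that does not grow with width, these shares were 23.4%, 30.2%, 26.0%, 27.3% and 21.4%, with intervals that all overlapped. By this measure 179 of 674 ERG peaks had EWS (26.6%, 23.3% to 30.1%), against 7.08% in the whole list, and 179 of 1022 EWS peaks had ERG (17.5%), against 5.75%. In the chromosome 13 block the share of ERG peaks was 14.6% (10.9% to 19.1%), and in the chromosome 6 block 25.1% (18.8% to 32.4%). EWS peaks numbered 212 per Mb in the chromosome 11 block, 97.3 in the chromosome 13 block and 171 in the chromosome 6 block. This measure still increases with the number of peaks of the other factor, which chose the block. Differences from the other blocks and from the whole lists are thus described and not tested.

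**Figure D4:**
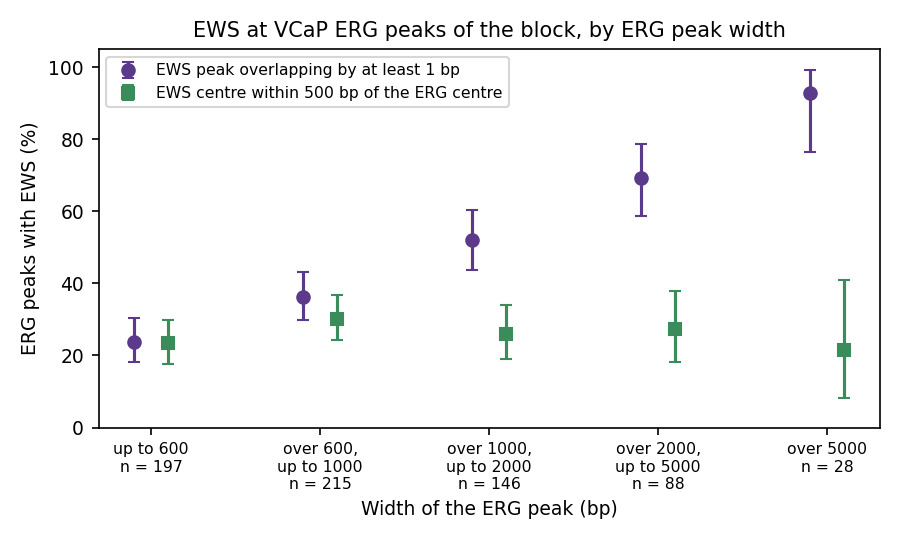
Share of VCaP ERG peaks of the block with EWS (%) in 5 classes of ERG peak width, with exact 95% binomial intervals; circles count any EWS peak that overlaps by at least 1 bp and squares an EWS centre within 500 bp of the ERG centre. The circles go up from 23.9% to 92.9% with width, and the squares stay between 21.4% and 30.2%.

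EWS centres lay inside ERG peaks at a share close to the share of bases that ERG peaks covered. In the whole block 248 of 1022 EWS centres lay inside an ERG peak (24.3%, 21.7% to 27.0%), and ERG peaks covered 19.9% of the bases. EWS centres numbered 2.59 per 10 kb inside ERG peaks and 2.01 per 10 kb outside them. From 63 to 64 Mb, 49.3% of EWS centres (42.5% to 56.1%) lay inside ERG peaks that covered 43.3% of the bases. The pairs of values were 27.2% and 24.3% from 64 Mb, 17.2% and 11.8% from 65 Mb, 11.9% and 8.69% from 66 Mb, and 10.4% and 9.69% from 67 Mb. In all 5 megabases the share of EWS centres was the higher value, and in each the covered share lay within its interval, whereas over the whole block it lay below it. In the chromosome 13 block 60.3% of EWS centres (54.4% to 65.8%) lay inside ERG peaks that covered 70.7% of the bases, and in the chromosome 6 block the values were 28.1% and 29.8%. By width, EWS centres numbered 2.25 per 10 kb inside ERG peaks of up to 600 bp, 2.95 inside those up to 1000 bp, 2.83 up to 2000 bp, 2.64 up to 5000 bp and 2.20 over 5000 bp.

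**Figure D5:**
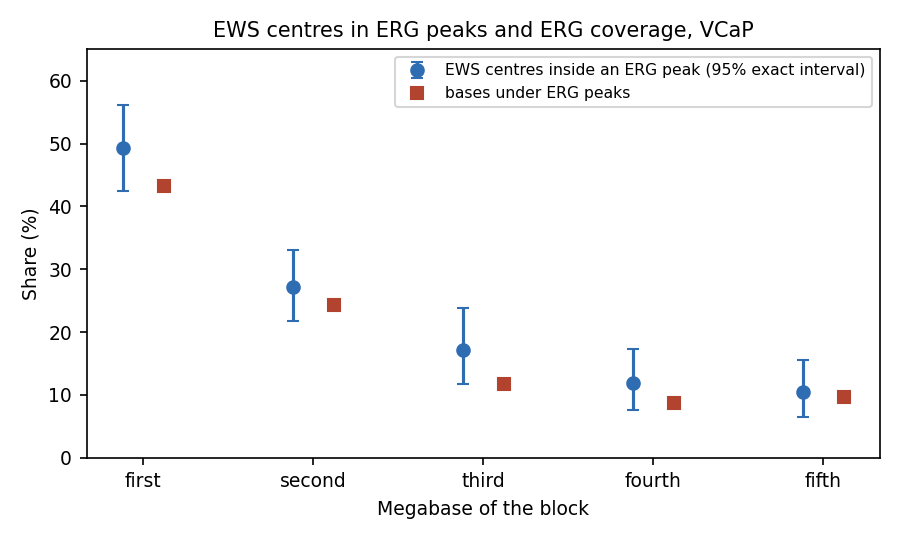
For each megabase of the block in VCaP, the share of EWS peak centres inside an ERG peak (%, circles with exact 95% binomial intervals) and the share of analysed bases under ERG peaks (%, squares). Both are highest in the first megabase, at 49.3% and 43.3%, and are 10.4% and 9.69% in the fifth; the covered share is lowest in the fourth, at 8.69%.

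The nearest peak of the other factor was usually within a few kilobases. From an ERG centre the nearest EWS centre was at a median of 1085 bp, within 100 bp for 33 peaks (4.90%), within 1000 bp for 323 (47.9%) and within 5000 bp for 649 (96.3%). From an EWS centre the nearest ERG centre was at a median of 1718 bp and within 5000 bp for 810 peaks (79.3%). The nearest other ERG centre lay at a median of 3035 bp from an ERG centre, and the nearest other EWS centre at 2399 bp from an EWS centre. Distances within a list and between lists are not set against each other here: no peaks of 1 VCaP list in the block lay within 500 bp of each other, centre to centre, whereas 179 ERG peaks had an EWS centre within 500 bp, and EWS peaks were the more numerous.

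The sequence of peaks within a list carries no stated meaning. By their place in it, ERG peaks of the block stood at a median of 51.5% of the VCaP ERG list, close to the 49.9% of the rest. EWS peaks of the block stood at a median of 23.3% of the VCaP EWS list, against 53.5% for the rest. The first 100 listed peaks held 13 ERG peaks of the block in the ERG list and 2 EWS peaks of the block in the EWS list. The first 1000 listed peaks held 68 ERG peaks of the block (6.80%) in the ERG list and 293 EWS peaks of the block (29.3%) in the EWS list, so the order of the lists by this share differed between the first 100 and the first 1000.

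In RWPE1 the block held 22 peaks over the 5 lists, all of which are given here. A VCaP ERG peak lay at 10 of the 22 (45.5%, 24.4% to 67.8%), against 3.12% of all RWPE1 peaks, and a VCaP EWS peak at 11 of the 22 (interval 28.2% to 71.8%), against 2.02%. Both lay at 5 of the 22. In VCaP, ERG peaks covered 19.9% and EWS peaks 10.4% of the bases of the block. These covered shares are not a baseline for the shares of RWPE1 peaks, which were counted by 1 bp overlap. The RWPE1 peaks of the block were 425 to 941 bp wide. Peaks of such width meet a VCaP peak by 1 bp more often than single bases do. How often they would do so by position alone was not computed, and no test was made on the shares. With ERG P436A, 2 of 5 ERG peaks had both VCaP factors. These were chr11:63330173-63330645, at the VCaP ERG peak chr11:63330539-63333026, and chr11:63741957-63742452, at the VCaP ERG peak chr11:63741361-63744233. The other 3, chr11:64984539-64985029, chr11:65047370-65047850 and chr11:65893968-65894453, had neither. The EWS peak with ERG P436A, chr11:65658964-65659460, had both VCaP factors.

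With WT ERG, 4 of 6 ERG peaks of replicate 1 lay at a VCaP ERG peak and 2 of 8 of replicate 2. In replicate 1 these were chr11:64012884-64013406, which lies in the VCaP ERG peak of 11112 bp, chr11:64622339-64623091, chr11:64636423-64637229 and chr11:65084355-65085161. Only the last of them also had VCaP EWS. In replicate 2 they were chr11:64780890-64781386 and chr11:67202334-67202828, neither of them with VCaP EWS. A VCaP EWS peak without VCaP ERG lay at chr11:64503897-64504809, chr11:64527528-64528122 and chr11:67017515-67018018 of replicate 2. No VCaP peak lay at chr11:64623802-64624673 of replicate 1 or at chr11:66434201-66434625 and chr11:66827831-66828318 of replicate 2. The replicates shared a single region, chr11:65782606-65783546 in replicate 1 and chr11:65782616-65783292 in replicate 2, and it had VCaP EWS at chr11:65782645-65783135 and no VCaP ERG. Both EWS peaks of WT cells, chr11:63924755-63925368 and chr11:66098443-66099288, lay at a VCaP EWS peak, the first of them at a VCaP ERG peak as well. No RWPE1 peak of the block was found in both a P436A and a WT list. How often P436A and WT lists share peaks outside the block was not computed. With so few peaks, no difference between P436A and WT ERG can be read from this.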

How the data were processed

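Each deposited peak list holds 3 columns per the files themselves, chromosome, start and end in base pairs, so the unit of the deposited values is a position and no count, score or p-value was at hand. The submitters' processing notes name Bowtie2 with version 0.12.8 and the build hg19. No source used here names the peak caller, its threshold or its control, and widths and the least gap between peaks can depend on them. Read depth is unknown, and 1 list per group, except WT ERG in RWPE1 with 2, allows no replicate check of any difference; intervals cover counting error only.

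Starts were read as 0-based and are printed 1-based. Members were taken by peak centre, and partners of an overlap never came from the stretch left out. Overlap needed at least 1 bp. Shares carry exact (Clopper-Pearson) 95% intervals, and the medians of spacing exact order-statistic intervals. Fisher's exact test (two-sided) was used for shares of ERG peaks over 2000 bp, adjusted by Benjamini-Hochberg over 3 comparisons at 0.05. The counting code was tested on simulated lists.

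Named regions were the 5 widest ERG peaks, the 3 widest with and without EWS, the 3 with most EWS, the 3 fullest windows, the 3 longest peak-free stretches, the outermost VCaP peaks at the block's edges and every RWPE1 peak. The members, lists and comparisons were chosen with earlier results of these data known. Genes and motifs planned for an hg19 annotation were not analysed. Python 3.11.15, NumPy 2.4.6, pandas 2.3.3, SciPy 1.17.1 and matplotlib 3.10.9 were used. Alternatives were other overlap rules, widths, the first listed 50% of each list, memberships and leaving out each WT ERG replicate. Leaving out 63 to 64 Mb, and a rest of the list without the chromosome 13 and 6 blocks, were added after the data were seen.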

Additional observations from a re-analysis of the deposited data

How the results depend on the processing

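Shares of overlap depended on the rule. ERG peaks with EWS were 42.7% at 1 bp, and 7.86% with a reciprocal overlap of 0.5, 26.6% with centres within 500 bp, 26.4% with all peaks set to 500 bp, 36.0% without ERG peaks over 2000 bp and 48.3% in the first listed 50% of each list. EWS peaks with ERG were 32.6%, and in the same order 5.19%, 17.5%, 17.4%, 20.3% and 24.1%, and 24.9% without 63 to 64 Mb. Median spacing was 2595 bp for ERG and 3016 bp for EWS edge to edge, 7139 bp and 4193 bp in the first listed 50%, and 5098 bp for ERG without 63 to 64 Mb. Edge-to-edge values are smaller, and those of shortened lists larger, by construction. The share of wide ERG peaks kept its direction against the rest of the list and the chromosome 6 block. This held under limits of 1000 and 3000 bp. It also held without 63 to 64 Mb, a cut that keeps the part of the wide stretch from 64 to 64.2 Mb. The odds ratio over the rest was 9.41 when the rest left out the chromosome 13 and 6 blocks, a rise that follows from that choice. The comparison with the chromosome 6 block did not pass at 1000 bp (odds ratio 0.819; Fisher's exact adjusted p = 0.253, the cause was not tested), and over its 3 alternatives the adjusted p ran from 1.97e-05 to 0.253. At 3000 bp that comparison was borderline, with an odds ratio of 0.596 and an interval of 0.356 to 1.02 (Fisher's exact adjusted p = 0.0485). The WT ERG lists had a mean of 7 peaks in the block, 8 without replicate 1 and 6 without replicate 2. Counting peaks with any overlap of the block changed neither share. No paired analysis was possible because only WT ERG in RWPE1 has 2 lists. Without depth, no peak can be called absent.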
